A study of Mustela putorius furo with 2 samples.

Results

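The genes described here carry names linked to motile cilia. They include 13 DNAH genes (axonemal dynein heavy chains), 5 DNAI genes (dynein intermediate chains and their relatives) and 44 CFAP genes (cilia and flagella associated proteins). The others are SPAG6, SPAG16 and SPAG17 of the central apparatus, and the transcription factor FOXJ1. All were chosen by name alone, and some, such as CFAP36, are not limited to motile cilia. The matrix listed 67 matching names, of which the antisense name CFAP44-AS1 held 0 UMIs (unique molecular identifiers, counted as RNA molecules), which leaves 66 of the 21317 gene names with at least 1 UMI. These 66 genes held 44699 UMIs in all, from 4 to 8522 per gene with a median of 217, and 26 of them held fewer than 100.

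The tissue was dorsal cortex taken from P3 (postnatal day 3) ferrets, all wild type, dissociated with papain and sequenced on a droplet platform as 2 replicate libraries of 1 group with no further treatment. Every comparison below is therefore between cell classes inside the same 2 libraries (n = 2 libraries throughout). Barcode suffixes separate the libraries, called A and B because no label ties a suffix to a replicate number, and 21 barcode sequences occurred in both. After filtering, library A held 9780 cells and 41831471 UMIs (median 3603 per cell) and library B 4993 cells and 18883955 UMIs (median 3074). The labels do not say whether the replicates are separate animals. With library as a block in the fit, the p-values measure only how far the differences between classes varied between these 2 libraries. That spread may be technical.

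A motile cilium is built on an axoneme whose outer doublet microtubules carry outer and inner dynein arms. Those motors are placed by radial spokes and docking structures, and the beat is organised by a central pair of microtubules with its own projections. FOXJ1 switches this gene set on in multiciliated cells. In the brain these are chiefly ependymal cells, which line the ventricles, move cerebrospinal fluid and descend from radial glia around birth, and choroid plexus cells. Radial glia and neurons each carry an immotile primary cilium, which is made by intraflagellar transport but has no dynein arms. In ferret, CRYAB marks truncated radial glia, a late radial glial type reported to give rise to ependymal cells, and HOPX is used as a marker of outer radial glia.

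Cell classes were set by gates that used none of the 66 genes. Ependymal-like cells had UMIs for at least 5 of 40 measured genes of other parts of the motile cilium, such as RSPH1, PIFO, TEKT1 and HYDIN. CRYAB-positive cells were glial cells with a CRYAB UMI, HOPX glia were glial cells with HOPX and no CRYAB, and neurons had at least 3 neuronal genes. Libraries A and B gave 38 and 62 ependymal-like cells, 94 and 67 CRYAB-positive cells, 1098 and 552 HOPX glia, and 4453 and 1843 neurons. The summed level of the 25 measured glial genes was 39302 and 42182 CPM (UMIs per 1000000 UMIs of the class and library) in HOPX glia and 27996 and 25764 CPM in ependymal-like cells, against 8822 and 10126 CPM in neurons. The 21 measured neuronal genes summed to 2255 and 2228 CPM in ependymal-like cells, above the 1194 and 1320 CPM in HOPX glia and the 1189 and 1511 CPM in CRYAB-positive cells, and to 9112 and 9029 CPM in neurons. Dividing cells made up 31.6% and 30.6% of ependymal-like cells, 37.2% and 37.3% of CRYAB-positive cells and 48.5% and 43.7% of HOPX glia. The 7 measured choroid plexus genes summed to 33.9 and 180.0 CPM in ependymal-like cells, with 5 and 3 of them at 0, and to 22.9 and 59.8 CPM in neurons, and 1 of the 100 ependymal-like cells had 3 or more of them. The part of neuronal RNA, dividing cells and choroid plexus cells in the results was not tested.

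The 66 genes together stood highest in ependymal-like cells, next in CRYAB-positive cells, then in HOPX glia, and lowest of these classes in neurons. Their summed level was 2513 CPM in library A and 6274 CPM in library B in ependymal-like cells, 1097 and 1143 CPM in CRYAB-positive cells, 927 and 908 CPM in HOPX glia, and 636 and 636 CPM in neurons. No library of one of these classes overlapped a library of the next. The 14 CFAP genes given no role below made up 320 and 316 CPM of the sum in neurons and 329 and 351 CPM in HOPX glia. In CRYAB-positive cells they made up 396 and 352 CPM, and in ependymal-like cells 563 and 1103 CPM. The ependymal-like class differed most between libraries, and its depth differed as well, with a median of 7250 UMIs per cell in library A and 2524.5 in library B. The other glial cells, with neither HOPX nor CRYAB, lay at 755 and 738 CPM, and EOMES-positive neuronal progenitors at 641 and 592 CPM.

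**Figure D1:**
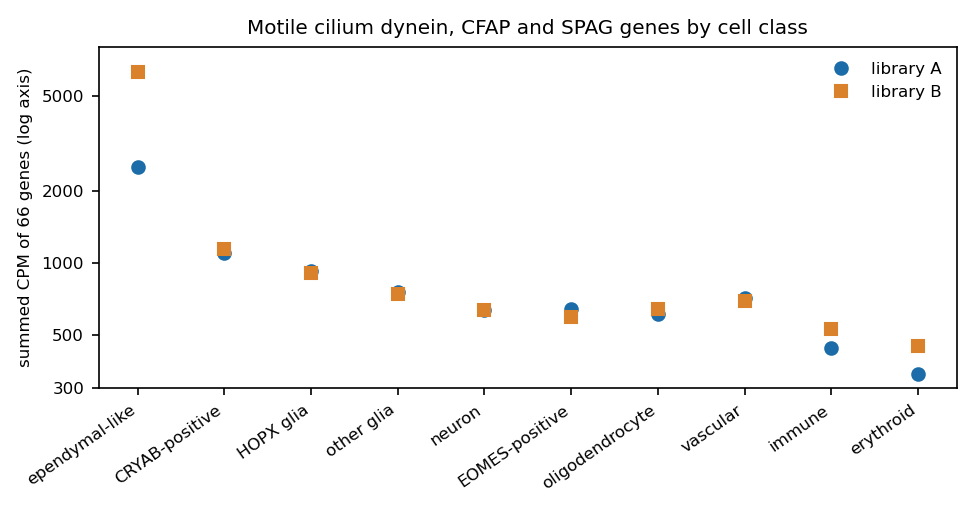
Summed CPM (log axis) of the 66 genes in each cell class, with 1 point for library A and 1 for library B. Ependymal-like cells are at 2513 and 6274 CPM, CRYAB-positive cells at 1097 and 1143, HOPX glia at 927 and 908 and neurons at 636 in both.

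The spread inside the ependymal-like class followed how many gate genes a cell had. Cells with 5 or 6 gate genes (25 in library A, 19 in library B) had a summed level of 1507 and 1389 CPM for the 66 genes. Cells with 7 to 9 (11 and 9 cells) had 2544 and 5062 CPM, and cells with 10 or more (2 and 34 cells) had 17536 and 13513 CPM. In the lowest tier 21 of 25 and 13 of 19 cells also passed the glial gate, and the median depth there was 7342 and 7604 UMIs per cell against 7042.5 and 2209.5 in the highest tier. Library A thus held 2 cells of the highest tier, with 12 and 54 of the 66 genes, and library B 34. Most library A cells of the class had 5 or 6 gate genes. The 2 cells at 17536 CPM also entered the library A level of 2513 CPM for the class. Their part in the library A values of single genes was not tested. FOXJ1 was detected in 3 of 25 and 1 of 19 cells of the lowest tier and in 2 of 2 and 14 of 34 of the highest. The gate genes belong to the same organelle as the 66 genes, so these tiers are a description and not a test.

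Counted per cell at equal depth, the same order appeared. After each cell was thinned to 1500 UMIs, a cell had UMIs for a mean of 3.95 (library A) and 10.3 (library B) of the 66 genes in the ependymal-like class, 1.56 and 1.70 in CRYAB-positive cells, 1.31 and 1.23 in HOPX glia, and 0.854 and 0.856 in neurons. At this depth 118 cells of the series had 5 or more of the genes. Of them 56 were ependymal-like and 22 vascular, immune or erythroid. HOPX glia gave 11 (library A) and 3 (library B) of these cells, other glia 7 and 3, and neurons 6 and 3. Among CRYAB-positive cells 1 cell in each library reached 5 genes. Cells with 5 or more gate genes had already been placed in the ependymal-like class, with or without CRYAB. The gate therefore limited this count, which does not show how many cells with CRYAB were multiciliated. Without thinning, the median was 11 and 12 genes per ependymal-like cell, 4.5 and 4 per CRYAB-positive cell, and 4 in HOPX glia of both libraries.

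**Figure D2:**
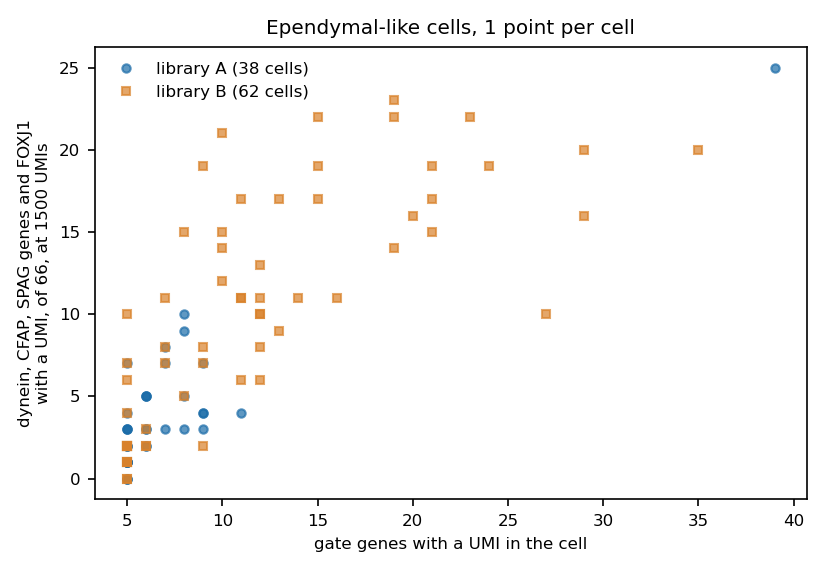
Each point is 1 of the 100 ependymal-like cells (circles library A, squares library B), with the number of gate genes on the x axis and the number of the 66 genes detected after thinning to 1500 UMIs on the y axis. Cells with 5 or 6 gate genes detect at most 7 (library A) and 10 (library B) of the 66 genes, and the 2 library A cells with 10 or more gate genes detect 4 and 25, against 6 to 23 in the 34 from library B.

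FOXJ1, the transcriptional switch of motile ciliogenesis, was rare everywhere outside the ependymal-like class. Its level there was 27.1 CPM in library A (8 UMIs, exact Poisson 95% interval 11.7 to 53.5) and 90.0 CPM in library B (24 UMIs, 57.7 to 134). CRYAB-positive cells had 7.10 CPM (4 UMIs, 1.93 to 18.2) and 6.28 CPM (2 UMIs, 0.761 to 22.7), HOPX glia 0.903 and 1.99 CPM (6 UMIs each), and neurons 0.130 CPM (2 UMIs) and 0, where a count of 0 allows up to 0.516 CPM (3 counts of the total). Both CRYAB-positive libraries were above both HOPX libraries. All these intervals and limits cover counting error only. Against HOPX glia, FOXJ1 was higher in ependymal-like cells by 5.20 on the log2 scale (SE 0.65, adjusted p = 9.91e-06, edgeR's quasi-likelihood test). Between CRYAB-positive cells and HOPX glia the difference was 2.34 (SE 1.01, adjusted p = 0.471 over the 12678 genes tested), with a 95% interval of 0.24 to 4.44 before adjustment.

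As a share of cells, FOXJ1 was detected in 21.1% of ependymal-like cells of library A (8 of 38, exact binomial 95% interval 9.55 to 37.3) and 24.2% in library B (15 of 62, 14.2 to 36.7). The share was 2.13% (2 of 94 cells, 0.259 to 7.48) and 2.99% (2 of 67, 0.364 to 10.4) in CRYAB-positive cells, and 0.455% and 1.09% in HOPX glia (5 of 1098 and 6 of 552). Neurons, which should lack the gene, had 0.0449% in library A (2 of 4453) and 0 of 1843 in library B, which allows a share of cells with a UMI of up to 0.163% (3 counts of the total). Median depths were 3220 and 2829 UMIs per cell in neurons and 5228.5 and 4305 in CRYAB-positive cells. Thinned to 1500 UMIs, the shares were 5.26% and 17.7%, 1.06% and 0, 0.0911% and 0.543%, and 0.0449% and 0, in the same order of classes. In all, 51 cells had FOXJ1 and 23 of them were ependymal-like. FOXJ1 and CRYAB occurred together in 13 cells, of which 8 were ependymal-like and 4 CRYAB-positive, and CRYAB was detected in 42.1% and 22.6% of ependymal-like cells.

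The regulators that act with FOXJ1 were mostly at the edge of detection. GMNC, which starts the multiciliated programme, had 3 UMIs in each ependymal-like library, 0 in CRYAB-positive cells and HOPX glia, and 1 in neurons. MCIDAS, CCNO and TP73 had 1, 5 and 3 UMIs in ependymal-like cells of both libraries together, and at most 2 in any other of these class sums. RFX2 and RFX3, which bind ciliary promoters, were well counted: RFX2 stood at 67.8 and 120.0 CPM in ependymal-like cells, 24.8 and 59.7 in CRYAB-positive cells, 32.8 and 23.9 in HOPX glia and 6.70 and 4.81 in neurons. RFX2 was higher in ependymal-like cells than in HOPX glia by 1.60 (log2, SE 0.33, adjusted p = 0.00236, edgeR) and RFX3 by 1.08 (SE 0.14, adjusted p = 1.27e-05). Over the whole regulator list, 3 of 10 tested genes were higher in ependymal-like cells (with ULK4, a kinase linked to ependymal cilia) and 0 lower, where 5.99% of all genes tested were higher and 2.97% lower.

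Of the 66 genes, 61 had their highest library CPM among the 4 classes in ependymal-like cells, and for 46 both ependymal-like libraries were above every library of CRYAB-positive cells, HOPX glia and neurons. Over all 21317 names with a UMI, 32.4% had their highest library in ependymal-like cells and 7.71% had both libraries above the rest. The 5 exceptions were CFAP210 and CFAP92, highest in CRYAB-positive cells, CFAP418 and CFAP97D1 in HOPX glia, and DNAH14 in neurons. DNAH14, CFAP92 and CFAP97D1 had 0 UMIs in ependymal-like cells. How far a gene was concentrated there varied widely. Ependymal-like cells were 0.677% of cells and held 0.925% of all UMIs. They held a median of 11.8% of a gene's UMIs and over 50% for 8 genes, the highest being CFAP126 with 84.4%. CFAP36 and CFAP97, the members with the highest CPM in neurons, had 1.71% and 1.15%.

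Grouped by role, every role summed higher in both ependymal-like libraries than in any library of the other 3 classes, and the roles differed in how far. Inner arm genes summed to 407 and 990.1 CPM in ependymal-like cells against 53.1 and 48.4 CPM in HOPX glia, and outer arm genes to 258 and 630.0 CPM against 60.8 and 56.4 CPM. The dynein preassembly genes came closest together, at 149 and 499 CPM against 140 and 144 CPM.

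In CRYAB-positive cells the role sums lay between the others or beside HOPX glia. Inner arm genes stood at 78.1 and 91.1 CPM and microtubule inner proteins at 183 and 170 CPM, where HOPX glia had 53.1 and 48.4 CPM and 132 and 121 CPM, so the libraries did not overlap. Outer arm genes (62.1 and 101 CPM) and central apparatus genes (192 and 201 CPM, against 167 and 143 in HOPX glia) were also above, the outer arm by little in library A. Spoke base genes, at 33.7 and 78.5 CPM against 44.7 and 42.1, overlapped. The CFAP genes without a role here had 396 and 352 CPM against 329 and 351, with the lowest CRYAB-positive library next to the highest HOPX library. These sums were not tested.

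**Figure D3:**
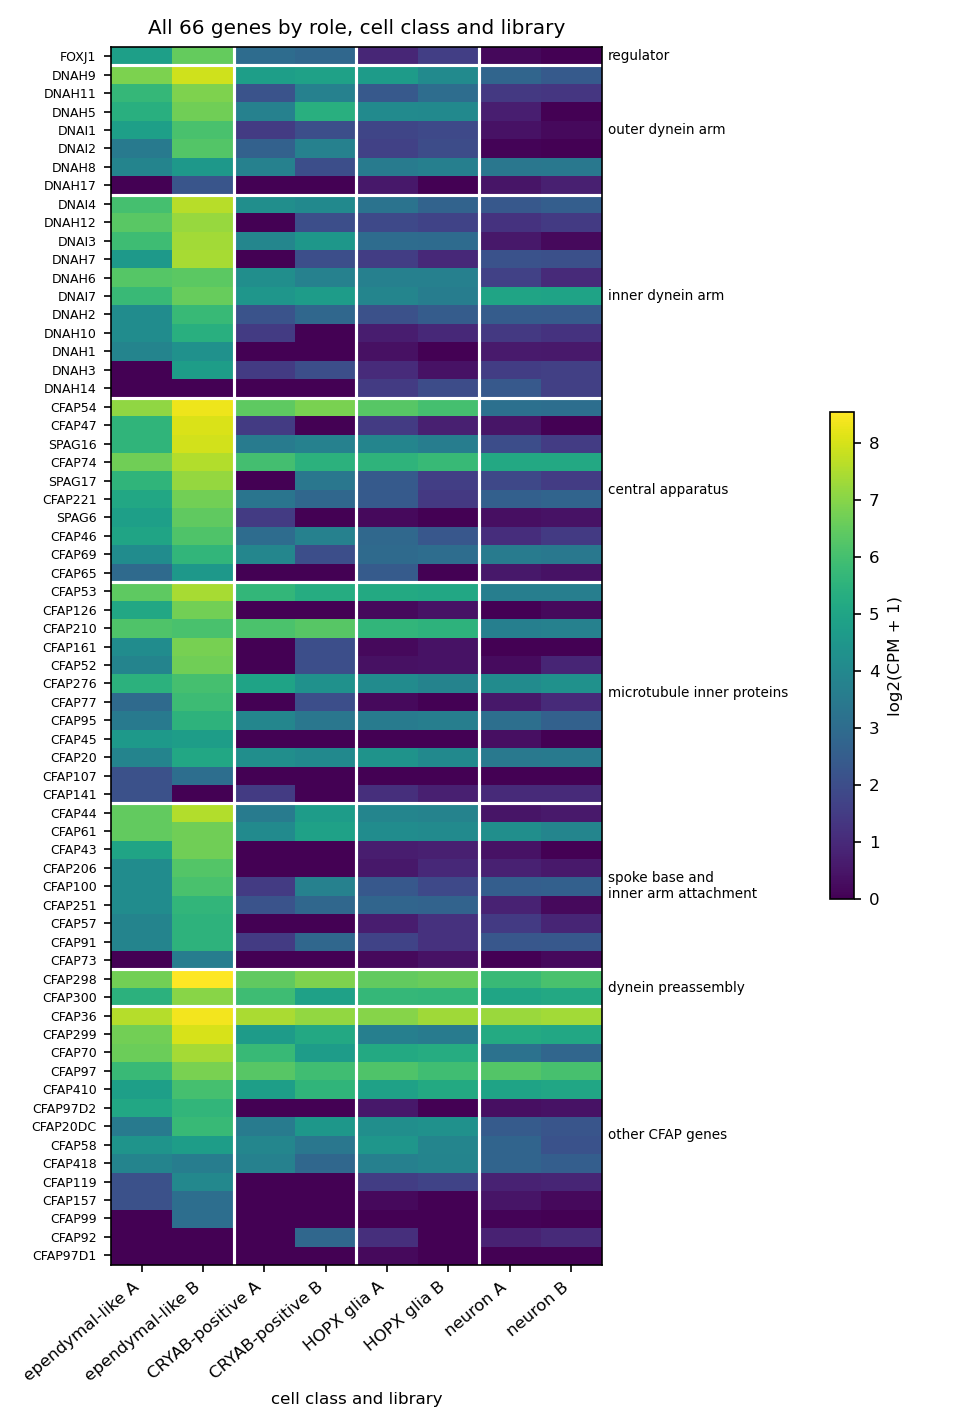
Level of each of the 66 genes as log2(CPM + 1) by cell class and library, with genes grouped by role and ordered within a role by their ependymal-like level. SPAG6 is at 27.1 and 86.3 CPM in ependymal-like cells and at most 1.77 CPM in every other column, while CFAP54 and CFAP210 are at 45.1 CPM or more in the glial columns too and CFAP36 is at 127 CPM or more in all columns.

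The test passed 55 of the 66 genes. The other 11 (CFAP99, CFAP157, DNAH17, CFAP141, CFAP92, DNAH14, CFAP119, DNAH3, CFAP73, CFAP97D1 and CFAP107, with 4 to 178 UMIs each) failed its filter on low counts. Of these, CFAP107 had 3 of its 4 UMIs in ependymal-like cells and DNAH3 7 of 86, whereas the inner arm heavy chain DNAH14 had 0 of 178 there, and 65 and 12 in neurons of libraries A and B. The filter asked for 5.59 CPM or more in at least 2 sums, and 22 of the 55 tested genes met this only with the ependymal-like sums, so they passed through the class in which they were high. The counts that follow therefore describe the tested genes and support no claim about the set. In ependymal-like cells against HOPX glia 44 of the 55 were higher and 0 lower, where 5.99% of all 12678 genes tested were higher and 2.97% lower. Of the 44, 21 were among the 22 genes that passed the filter only through ependymal-like cells. The counts by role below share this limit and are to be set beside the same 5.99% and 2.97%. The median log2 difference was 3.17, and -0.02 over all genes tested. In 43 of the 44 the difference was larger in library B than in library A. The gate of the class used neighbouring parts of the same machine, so this comparison sets a reference level for the others.

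Dynein arm genes made up 14 of the 44. The outer arm heavy chain DNAH9 stood at 115 and 244 CPM in ependymal-like cells against 24.99 and 15.9 CPM in HOPX glia, a log2 difference of 2.98 (SE 0.30, adjusted p = 5.24e-07, edgeR). DNAH5, the other principal outer arm heavy chain, had 40.7 and 101 CPM against 15.95 and 15.6, a smaller difference of 2.01 (SE 0.43, adjusted p = 0.00327) that was about as large but not called with DESeq2 (2.05, adjusted p = 0.0715) and after thinning to equal depth (1.84, adjusted p = 0.143). The other outer arm genes DNAH11, DNAI1 and DNAI2 were higher by 3.73 to 4.04. DNAH8, an outer arm heavy chain best known from sperm flagella, had 13.6 and 22.5 CPM against 10.7 and 11.9 (0.60, SE 0.54, adjusted p = 0.600). All 9 tested inner arm genes were higher, from 2.43 for DNAI7 (SE 0.32, adjusted p = 2.01e-05) upward. Among the dynein genes, DNAH1, DNAH2, DNAH7, DNAH10, DNAH12, DNAI1 and DNAI2 passed the filter only through the ependymal-like sums. DNAH7 was higher by 5.53 (SE 0.61, adjusted p = 1.75e-06), and DNAH1 had the highest fitted value, with 9 UMIs against 2 in HOPX glia, a ratio of 77.4 (exact counting interval 16.02 to 736).

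Genes of the central apparatus, the projections on the central pair, were higher in 9 of 10 cases. SPAG6, SPAG17, CFAP47 and CFAP65 passed the filter only through the ependymal-like sums, and CFAP65 was not called. SPAG6 had 27.1 and 86.3 CPM in ependymal-like cells and 1 UMI in all HOPX glia, a ratio of 533 with an exact counting interval of 88.9 to 21735 (adjusted p = 1.75e-06, edgeR). SPAG17 had 47.5 and 146 CPM against 4.37 and 1.99, a log2 difference of 4.60 (SE 0.53, adjusted p = 3.47e-06). SPAG16 had 47.5 and 248 CPM against 13.8 and 11.3 (3.32, SE 0.42, adjusted p = 1.04e-05). CFAP47 had 47.5 and 263 CPM against 1.81 and 0.663 (6.31, SE 0.62, adjusted p = 4.16e-07), while CFAP54, already at 79.6 and 63.3 CPM in HOPX glia, was higher by 1.54 (SE 0.24, adjusted p = 0.000135) at 139 and 319 CPM. The smallest called difference in this role was that of CFAP74, a subunit of a central pair projection, at 1.49 (SE 0.23, adjusted p = 0.000162), from 45.6 and 52.4 CPM to 102 and 188 CPM.

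Microtubule inner proteins, which line the inside of the doublets, fell into unlike groups. CFAP126 had 33.9 and 105 CPM in ependymal-like cells and 2 UMIs in HOPX glia (ratio 327, counting interval 84.5 to 2797, adjusted p = 1.09e-06, edgeR), and CFAP161 had 16.96 and 109 CPM and 2 UMIs (ratio 292, 75.0 to 2513, adjusted p = 4.30e-06). CFAP45 had 7 UMIs in each ependymal-like library and 0 in HOPX glia, which makes it at least 80.3-fold higher (floor of 3 counts over both libraries). CFAP210, by contrast, had 71.2 and 67.5 CPM in ependymal-like cells and 47.9 and 45.1 CPM in HOPX glia, a difference of 0.50 (SE 0.25, adjusted p = 0.268, 95% interval -0.02 to 1.02). CFAP20 and CFAP95 were not called either, and in all 7 of 10 tested genes of this role were higher. CFAP45, CFAP52, CFAP77, CFAP126 and CFAP161 passed the filter only through the ependymal-like sums.

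All 8 tested genes of the spoke base and the inner arm attachment were higher. Of these, CFAP43, CFAP57, CFAP91, CFAP100 and CFAP206 passed the filter only through the ependymal-like sums. CFAP44, part of the tether of an inner arm dynein, had 88.2 and 188 CPM against 13.8 and 13.3 in HOPX glia, a difference of 3.17 (SE 0.31, adjusted p = 3.54e-07, edgeR). CFAP61, of the complex between spokes and inner arms, had 88.2 and 101 CPM against 16.9 and 15.9 (2.46, SE 0.29, adjusted p = 4.30e-06). The cytoplasmic factors that assemble dynein arms differed less. CFAP298 had 105 and 371 CPM against 89.4 and 94.8 (1.23, SE 0.25, adjusted p = 0.00172), mostly in library B, and DESeq2 gave 1.18 without a call (adjusted p = 0.0680). CFAP300 had 44.1 and 128 CPM against 50.3 and 49.4 (0.67, SE 0.31, adjusted p = 0.231).

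Of the 9 tested CFAP genes given no role here, 4 were higher and 5 were not called. Of the 4, CFAP97D2 passed the filter only through the ependymal-like sums. CFAP299 had 105 and 259 CPM in ependymal-like cells and 11.7 and 10.6 CPM in HOPX glia, a difference of 3.88 (SE 0.31, adjusted p = 2.73e-08, edgeR). CFAP70 had 98.4 and 165 CPM against 35.4 and 38.1 (1.77, SE 0.27, adjusted p = 0.000116). CFAP36, whose product binds the small GTPase ARL3 and is not limited to motile cilia, had 193 and 334 CPM against 127 and 159 (0.81, SE 0.18, adjusted p = 0.00520). CFAP97 had 54.3 and 113 CPM against 71.2 and 59.7, so the libraries overlapped (0.25, SE 0.27, adjusted p = 0.676).

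CRYAB-positive cells against HOPX glia was the comparison with the fewest differences. Of the 55 tested genes 0 were higher and 0 lower, where 0.576% of all genes tested were higher and 0.331% lower (DESeq2 also 0 and 0). At an unadjusted p under 0.05, 4 of the 55 were higher (CFAP210, CFAP299, FOXJ1 and DNAI3) and 0 lower, where 4.61% and 4.43% of all genes tested were. The median log2 difference was 0.19, or 0.31 with genes at 0 in a class set to their bound and 8 genes at or under the floor in both classes left out, and -0.01 over all genes tested. Both CRYAB-positive libraries were above both HOPX libraries for 14 of the 55 genes and below for 4, where 21.1% and 21.6% of all genes tested did so. All 4 below (CFAP206, CFAP126, CFAP57 and CFAP43) had 0 UMIs in CRYAB-positive cells and 2 to 8 in HOPX glia, and the limits that a count of 0 allows there, 5.32 and 9.42 CPM, lie above their HOPX levels, so their order cannot be told at this depth. The median SE was 0.71 on the log2 scale, so small differences were not detectable at this depth in most of these genes.

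Besides FOXJ1, 3 genes were thus closest to the threshold. CFAP210 had 69.2 and 78.5 CPM in CRYAB-positive cells against 47.9 and 45.1 in HOPX glia, a difference of 0.61 (SE 0.21, adjusted p = 0.238, edgeR). CFAP299 had 24.8 and 34.6 CPM against 11.7 and 10.6 (1.29, SE 0.47, adjusted p = 0.314). DNAI3, an intermediate chain relative of an inner arm dynein, had 14.2 and 22.0 CPM against 7.07 and 6.96 (1.23, SE 0.57, adjusted p = 0.517). Their CRYAB-positive libraries lay above the HOPX libraries in each case. The level of CFAP210 in CRYAB-positive cells was inside the range of its counting intervals in ependymal-like cells (44.1 to 109 CPM and 40.01 to 107 CPM), whereas CFAP299 and DNAI3 stayed below both of theirs.

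These calls move with where the ependymal gate is placed. With at least 7 gate genes for ependymal-like cells, so that cells with 5 or 6 could count as CRYAB-positive or HOPX glia, 1 gene was higher in CRYAB-positive cells (CFAP299, 1.56, adjusted p = 0.0193, edgeR), and with at least 10 there were 3 (CFAP210, CFAP299 and DNAI3). The main fit's shares over all genes do not apply to these fits. Their own shares are not given here, so these counts support no claim about the set. At 10 the ependymal-like sum of library A holds 2 cells and was kept in the fit, below the minimum of 5 cells used elsewhere. Moving the gate changes the members of the classes and also the estimate of the spread that all classes share. For example, CFAP298 in CRYAB-positive cells against neurons stayed at 0.58 with a gate of 10. Its adjusted p went from 0.0954 to 0.00597 (edgeR). The part of each change was not tested. In the main classes, CRYAB-positive cells with 3 or 4 gate genes (15 and 6 cells) had 1177 and 1716 CPM of the 66 genes, and those with none (29 and 23 cells) 1017 and 1080 CPM. HOPX glia with 3 or 4 gate genes (87 and 36 cells) had 1102 and 1056 CPM and those with none 892 and 889 CPM. The summed level of the gate genes was itself 257 and 248 CPM in CRYAB-positive cells against 170 and 179 CPM in HOPX glia, and their part in the results was not tested. With only cells under 2 gate genes, the summed levels were 1062 and 1011 CPM in CRYAB-positive cells and 899 and 894 CPM in HOPX glia, with 0 genes called.

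HOPX glia and neurons differed in a way that divided the genes. Of the 55 tested, 24 were higher in HOPX glia and 5 lower, where 33.6% of all genes tested were higher and 33.6% lower. The median log2 difference was 0.56 (0.59 with bounds, 1 gene left out) and -0.02 over all genes. DESeq2 gave 19 higher and 2 lower, where it called 3308 higher and 2989 lower of all 12678 genes tested. The call of CFAP65 rests on library A alone, which held all 30 of its UMIs in HOPX glia.

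The roles differed between HOPX glia and neurons, where 33.6% of all genes tested were higher in HOPX glia and 33.6% lower. Of the 6 tested outer arm genes 5 were higher in HOPX glia and 0 lower. Of 9 inner arm genes 2 were higher and 1 lower, and of 8 spoke base genes 2 and 1. Of 10 central apparatus genes 5 were higher and 1 lower, and of 10 microtubule inner proteins 3 and 0. Inner arm genes summed to 53.1 and 48.4 CPM in HOPX glia and 55.6 and 51.4 CPM in neurons. DNAH5 had 15.95 and 15.6 CPM in HOPX glia against 0.651 CPM and 0 in neurons (4.83, SE 0.46, adjusted p = 4.52e-09, edgeR). DNAH9 had 24.99 and 15.9 CPM against 5.86 and 4.30 (1.87, SE 0.26, adjusted p = 1.15e-06). DNAI2, an outer arm intermediate chain, had 2.11 and 2.98 CPM in HOPX glia and 1 UMI in all neurons, a ratio of 50.5 (counting interval 8.19 to 2078, adjusted p = 0.000197). FOXJ1, with 12 UMIs in HOPX glia and 2 in neurons, had a ratio of 13.2 (2.93 to 121, adjusted p = 0.00834), and this call was lost at equal depth (adjusted p = 0.136).

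Several structural genes were also well counted in HOPX glia. CFAP54 was at 79.6 and 63.3 CPM against 7.94 and 7.56 CPM in neurons (3.08, SE 0.19, adjusted p = 1.77e-12, edgeR). CFAP44 was at 13.8 and 13.3 CPM against 0.390 and 0.516 (4.74, SE 0.40, adjusted p = 6.38e-10), and CFAP70 at 35.4 and 38.1 against 8.33 and 6.02 (2.12, SE 0.19, adjusted p = 1.82e-09). SPAG16 followed at 13.8 and 11.3 CPM against 3.06 and 1.89 (2.09, SE 0.40, adjusted p = 8.34e-05). SPAG6 and SPAG17 of the same apparatus were not called, and both passed the filter only through the ependymal-like sums. SPAG6 had 1 UMI in HOPX glia and 6 in neurons (adjusted p = 0.417, edgeR), too few to tell an order. SPAG17 had 35 and 51 UMIs (0.44, SE 0.52, 95% interval -0.64 to 1.51, adjusted p = 0.471). CFAP298 and CFAP300 were higher by 0.51 (SE 0.15) and 0.48 (SE 0.14), and CFAP74 by 0.33 (SE 0.13, adjusted p = 0.0288). DESeq2 gave these 3 genes 0.48, 0.45 and 0.33 and called none of them (adjusted p = 0.342, 0.453 and 0.322).

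The 5 genes higher in neurons than in HOPX glia were CFAP299, DNAI7, CFAP69, CFAP36 and CFAP91. CFAP299 had 36.3 and 33.7 CPM in neurons against 11.7 and 10.6 in HOPX glia, a difference of -1.76 for glia minus neurons (SE 0.20, adjusted p = 6.10e-08, edgeR). DNAI7, an inner arm associated protein, had 31.0 and 29.9 CPM against 13.8 and 11.3 (-1.37, SE 0.16, adjusted p = 1.29e-07). In both genes the libraries of the classes lay far apart, and DESeq2 called both. CFAP36 had 151 and 163 CPM against 127 and 159, where the libraries overlapped (-0.29, SE 0.11, adjusted p = 0.0287), and the calls of CFAP36, CFAP69 and CFAP91 were lost with DESeq2 (-0.30, -0.71 and -1.24, adjusted p = 0.295, 0.271 and 0.147). All 5 genes were also higher in ependymal-like cells than in HOPX glia. Set side by side, 17 of the 44 genes higher in ependymal-like cells were also higher in HOPX glia than in neurons, 5 were lower and 22 were called in neither direction; 7 further genes were higher in HOPX glia than in neurons without a call in ependymal-like cells, and 4 were called in neither comparison. Both comparisons share the HOPX sums.

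CRYAB-positive cells against neurons gave 14 higher genes and 0 lower of the 55, where 22.3% of all genes tested were higher and 19.6% lower, and the median was 0.51 (0.75 with bounds, 8 genes left out) against -0.02 over all genes. This comparison shares its neurons with that of HOPX glia, so the values are given side by side. DNAH5 differed from neurons by 5.33 (SE 0.77) in CRYAB-positive cells and 4.83 in HOPX glia, CFAP54 by 3.45 (SE 0.34) and 3.08, CFAP44 by 4.93 (SE 0.74) and 4.74, and DNAI3 by 5.19 (SE 0.78) and 3.95 (adjusted p from 2.22e-08 to 1.14e-05 for the CRYAB-positive values, edgeR). FOXJ1 in CRYAB-positive cells had a ratio of 72.1 to neurons (12.9 to 730 from 6 and 2 UMIs, adjusted p = 0.00135). That call was lost at equal depth (adjusted p = 0.336) and with only cells under 2 gate genes (adjusted p = 0.295). DNAI4, an inner arm intermediate chain relative, was called here (1.78, SE 0.61, adjusted p = 0.0230) and not for HOPX glia (0.63, SE 0.34, adjusted p = 0.111), and the difference between both glial classes was 1.15 (SE 0.59, adjusted p = 0.596). After thinning to 1500 UMIs, 6 of the tested genes passed the threshold in this comparison (DNAH5, DNAH6, DNAH9, CFAP44, CFAP54 and CFAP210). The share of all genes called in that fit is not given here.

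Other genes of the cilium were compared by the same fits. In ependymal-like cells against HOPX glia, 5.99% of all genes tested were higher and 2.97% lower. The motile cilium lists hold parts of the same organelle as the gate. Genes could also pass the filter through ependymal-like sums alone, so the counts are a description and not a test. Of 20 tested genes for docking complexes, the ruler, radial spokes and the nexin link, 16 were higher in ependymal-like cells than in HOPX glia and 0 lower. They were led by RSPH9, a radial spoke head protein (102 and 368 CPM against 13.8 and 14.9; 3.81, SE 0.30, adjusted p = 2.24e-08, edgeR), CCDC39 of the molecular ruler (3.42, SE 0.43) and DNALI1, an inner arm light chain with 6 and 16 UMIs against 2 and 1 (adjusted p = 4.32e-05). Of 17 dynein assembly factors 8 were higher, led by SPAG1 (1.98, SE 0.25), DNAAF6 (5.85, SE 0.74) and DNAAF11 (2.61, SE 0.42). The primary cilium and intraflagellar transport list, which motile cilia share, had 13 of 44 higher, among them the retrograde dynein subunits DYNC2H1 (1.27, SE 0.23) and DYNC2I1 (2.23, SE 0.39). Of 19 cytoplasmic dynein and dynactin genes, which move cargo along microtubules in every cell, 1 was higher (DYNLT1, 0.61, SE 0.13). That is 5.26%, near the share over all genes tested. In any of these lists 0 genes were lower.

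Between CRYAB-positive cells and HOPX glia 0 genes of these lists were called in either direction, the regulators included. At an unadjusted p under 0.05 the docking, ruler and spoke list had 2 higher and 1 lower, the dynein assembly list 1 and 1, the primary cilium list 1 and 0, and the regulators and cytoplasmic dynein genes 0 and 0 (DESeq2 called 0 in each), where 4.61% and 4.43% of all genes tested were higher and lower. Between HOPX glia and neurons, where 33.6% of all genes tested were higher and 33.6% lower, 10 of 20 docking, ruler and spoke genes were higher in glia and 0 lower. Of the 44 primary cilium genes 18 were higher and 9 lower (40.9% and 20.5%). Of the 55 tested genes of the main set, 43.6% were higher and 9.09% lower. Of the 19 cytoplasmic dynein genes 14 were lower in HOPX glia, led by DYNC1I1 (-3.14, SE 0.18), and 2 higher, NDE1 and DYNLL1. No difference between lists was tested. Among regulators 6 of 10 were higher in HOPX glia, led by RFX4, a glial RFX factor (6.02, SE 0.16), E2F5 (1.93, SE 0.13) and DEUP1, which amplifies centrioles in multiciliated cells (3.01, SE 0.21), and ULK4 was lower. RFX3 stood at 176 and 172 CPM in HOPX glia and 177 and 169 CPM in neurons, so the libraries overlapped (-0.12, SE 0.10, adjusted p = 0.258). Between CRYAB-positive cells and neurons, 17 of the 44 primary cilium genes were higher and 3 lower (38.6% and 6.82%). Of the 55 tested genes of the main set 25.5% were higher, and 22.3% and 19.6% of all genes tested were higher and lower.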

How the data were processed

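Single-cell RNA was measured in 2 libraries of 1 group. The deposited matrix gives raw UMI counts, 1 value for each gene in each cell, made with Cell Ranger per the submitters' processing notes, with no normalization. For its version, the genome build and strand use: not given in the sources used here. No positions are printed. Antisense and overlapping genes cannot be told apart from their partners without strand. All 66 names matched RefSeq symbols of assembly ASM1176430v1.1.

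Cells were required to have 500 genes or more and no more than 10% of their UMIs from mitochondrial genes (14 of 14787 removed). No deposited cell had under 1501 UMIs, so cells were filtered before deposit. Scrublet in scanpy 1.11.5 marked 1 cell as a doublet, so its threshold had not worked, and an alternative left out the 485 cells with a score above 0.2. Cells with at least 3 vascular or 3 immune genes, 2 erythroid or 2 oligodendrocyte genes were set apart before the other gates. Glial cells had at least 3 glial genes and at least 2 times as many as neuronal genes, and neurons the converse, with no EOMES, CRYAB or HOPX. Mean doublet scores were 0.0760 and 0.0588 in ependymal-like cells, 0.0498 and 0.0581 in CRYAB-positive cells and 0.0407 and 0.0461 in HOPX glia.

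CPM is a gene's UMIs per 1000000 UMIs of the class and library. UMIs were summed into 8 sums (4 classes, 2 libraries) and fitted on all genes with edgeR 4.0.16 in R 4.3.3 (TMM, filterByExpr, quasi-likelihood test, library as a block, Benjamini-Hochberg over all genes tested, threshold 0.05). The block is the library that both classes come from. All 4 classes shared one estimate of the spread, because 2 classes alone leave 1 residual degree of freedom. SEs are the log2 fold change over the square root of F. The fit was tested on simulated data for CRYAB-positive cells against HOPX glia. It recovered 35.9% of changes of 1 on the log2 scale and 76.6% of changes of 2. The simulated sums had 1 fixed spread and no library effect, unlike the data. Alternatives included DESeq2 1.42.0, other gates, no filter and thinning to 1500 UMIs. Levels of different genes are UMI counts, not scaled by length.

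The genes and lists were chosen with earlier results of these data known. The text names FOXJ1, the SPAG genes, the 10 genes highest by CPM in ependymal-like cells, the 6 highest in neurons and in HOPX glia, the regulators GMNC, MCIDAS, CCNO, RFX2, RFX3 and TP73, and up to 3 called genes of smallest adjusted p in each other list. DNAH5, DNAI2, DNAI3, DNAI4, DNAI7, CFAP126, CFAP161, CFAP69, CFAP91, CFAP61 and other genes outside that rule, and the roles, were chosen after their values were seen.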

Additional observations from a re-analysis of the deposited data

How the results depend on the processing

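Over 14 alternatives, 105 of 112 recomputed counts of called genes stayed within 1.5 times their main value. This overstates stability. The alternative with sums of at least 20 cells repeated the main fit, since the smallest sum held 38 cells. Counts of 0 in both fits also scored as unchanged, as for lower genes in every comparison but HOPX glia against neurons. Ependymal-like cells against HOPX glia gave 31 to 50 higher genes (31 after thinning) and 0 lower throughout. HOPX glia against neurons gave 16 to 27 higher; the lower genes, 5 as reported, were 2 with DESeq2, 8 with no filter on low counts, 8 with an ependymal gate of 10 genes and 3 without dividing cells. CRYAB-positive cells against HOPX glia gave 1 higher gene with a gate of 7 genes and 3 with a gate of 10. CRYAB-positive cells against neurons gave 6 to 21 higher genes (6 after thinning, 14 as reported). Without the replicate block on library 44 genes were higher and 0 lower in ependymal-like cells against HOPX glia, 0 and 0 in CRYAB-positive cells against HOPX glia, 14 and 0 in CRYAB-positive cells against neurons, and 23 and 4 in HOPX glia against neurons. The cause of these shifts was not tested. For alternatives other than DESeq2 the share of all genes called is not given here, so these counts describe the tested genes alone. The gate of 10 genes and an ependymal gate applied before all others were added after seeing the data; at 10 the fit also kept a sum of 2 cells. Of the called differences named by rule or shown in full, at least 1 alternative ended 3 of 22 in ependymal-like cells against HOPX glia, 3 of 8 in CRYAB-positive cells and 7 of 17 in HOPX glia against neurons. Signs changed in 57 of 1328 recomputed differences, all of genes called in neither setting. The summed level in ependymal-like cells moved to 8234 CPM with a gate of 7 genes and 15525 with 10, from 4394 (means of both libraries). The median of all genes shifted by over 0.1 under several of these (to -0.40 in ependymal-like cells against HOPX glia with a gate of 10). A single library leaves no residual degrees of freedom, so each library's difference is a value without a test.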

Other observations

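Cells set apart before the ependymal gate held some of these genes too. Of the vascular cells, 2 of 149 in library A and 16 of 406 in library B also had at least 5 gate genes, and in these the 66 genes summed to 10421 and 3062 CPM against 624 and 603 CPM in the remaining vascular cells. All 18 had 3 or more glial genes, and their mean doublet scores were 0.0738 and 0.0636. No immune, erythroid or oligodendrocyte-lineage cell passed the gate (0 of 153 and 158, 0 of 27 and 20, and 0 of 113 and 46 cells).

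Single genes of the set stood high outside the 4 compared classes, and these were picked after their values were seen. DNAI4 was at 69.7 and 52.3 CPM in vascular cells under the ependymal gate (37 and 55 UMIs), and at 71.0 and 55.9 CPM with the 18 cells past it, against 8.43 and 5.64 CPM in HOPX glia. CFAP299 was at 37.9 and 156 CPM in oligodendrocyte-lineage cells (25 and 45 UMIs), with the libraries far apart. CFAP20, a microtubule inner protein, was at 48.5 and 45.2 CPM there, against 13.6 and 33.8 CPM in ependymal-like cells. SPAG17 was at 22.2 and 19.8 CPM in immune cells (12 and 9 UMIs), against 4.37 and 1.99 CPM in HOPX glia. None of these differences was tested, and free RNA or doublets as a source were not tested.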
